A study of Mus musculus with 19 samples.

Results

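The genes described here are 45 genes of amino acid metabolism and the urea cycle, chosen by gene symbol: the enzymes and transporters of urea synthesis, the transaminases and glutamine and glutamate enzymes, the enzymes that break down aromatic amino acids, histidine, serine, glycine, proline, lysine and branched chains, those that make serine and asparagine, the methionine cycle with transsulfuration, and 3 amino acid transporters of the Slc38 family. Each of the 45 symbols matched 1 of the 51826 deposited gene entries, and all 45 were among the 16230 entries with a mean of at least 0.1 TPM that were tested. Liver RNA was sequenced from 19 female Balb/c mice given the age of 12 weeks, each a separate animal. They were 7 nulliparous mice (NUL), which had not borne young, 6 mice at lactation day 10 (LAC), and 6 mice at involution day 6 (ID6), that is 6 days after weaning. The labels name no treatment or engineered allele for any mouse, the caudate lobe was the piece frozen for RNA, and the mice came from a pair of suppliers whose animals are not told apart in the labels. The comparisons ask how the transcript levels of this system differ between the liver that has not been through pregnancy, the liver during milk production and the liver after weaning.

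Amino acids that are not used for protein lose their nitrogen in the liver, mostly by transamination onto glutamate, and the nitrogen leaves as urea through a cycle of enzymes divided between mitochondria and cytosol. The carbon skeletons become glucose, ketone bodies or acetyl-CoA. Methionine enters a separate cycle that supplies methyl groups through S-adenosylmethionine and leaves homocysteine, which is either methylated back to methionine or passed through transsulfuration to cysteine. Lactation is known as a time of high food intake and of high export of amino acids into milk protein, and weaning ends that export within days.

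TPM is a gene's share of all transcripts of a mouse on a fixed total, corrected for transcript length, so levels of different genes can be compared on it. Means are given ± SD over the 7 NUL, 6 LAC and 6 ID6 mice. It keeps no read depth, and the number of mice limits the precision. Changes are given as log2 changes of TPM + 1 with standard error (SE) and adjusted p from limma, fitted across all tested entries, and a gene is said to rise, fall or change only at an adjusted p under 0.05. Between 11209 and 11797 entries reached 1 TPM in each mouse. The mice carried animal numbers from 1 to 240, which follow the stage in their names (NUL_1, LAC_240). Numbers under 200 belonged to 3 NUL and 3 LAC mice, and numbers of 200 and above to 4 NUL, 3 LAC and all 6 ID6 mice, and several of the 45 genes stood apart between these ranges within a stage. Range and stage therefore cannot be told apart where ID6 mice are compared with lower-numbered mice, and values among mice numbered 200 and above are given where they end a call. LAC mice enter both the lactation and the involution comparison, so a gene that is high in these mice tends to be higher in the first and lower in the second.

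The piece sampled holds other cells beside hepatocytes. All 5 Kupffer cell markers (Clec4f, Cd5l, Vsig4, Marco and Adgre1) rose in ID6 against LAC and against NUL, with a summed level of 146 to 279.8 TPM in NUL, 94.7 to 200.2 TPM in LAC and 323 to 463 TPM in ID6 mice. In lactation against NUL, 4 of these 5 fell, beside 6.49% of all entries. Of other lists, 1 of 5 sinusoidal endothelial (Clec4g), 2 of 5 stellate cell (Reln and Dcn) and 1 of 5 cholangiocyte markers (Spp1) fell. So did 1 of 4 lymphocyte (Ptprc) and 1 of 3 tested acinar pancreas markers (Cela1). The median log2 change of these acinar markers was 0.37, and that of the 3 erythroid markers, of which 0 were called, was 0.40. The sum of all 4 acinar markers was nevertheless lower in lactation, at 21.2 to 41.8 TPM in NUL, 4.85 to 12.8 TPM in LAC and 17.1 to 21.1 TPM in ID6 mice. All 3 erythroid markers fell in ID6 against LAC and against NUL, with sums of 732 to 1488 TPM in NUL, 828.9 to 2052 TPM in LAC and 124 to 562 TPM in ID6 mice. Of the 5 sinusoidal endothelial markers 3 rose in ID6 against LAC (sum 61.1 to 113 against 147 to 163 TPM), and of the 5 stellate cell markers 1 rose, beside 18.1% of all entries. The 5 hepatocyte markers summed to 60288 to 95393 TPM in NUL, 101306 to 153449 TPM in LAC and 80497 to 113234 TPM in ID6 mice, and of these Alb fell and Ttr and Fgb rose in ID6 against LAC. Alb had risen in LAC, from 55208 to 100197 TPM (log2 change 0.86, adjusted p = 0.00137). The kidney markers Slc12a1 and Kap were at 0 in every mouse and Umod at 0.01 TPM or less. The part of these shifts in the results below was not tested, and in whole tissue fewer cells of a type and less RNA per cell cannot be told apart.

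The 45 genes together held 2.08% ± 0.263 (SD, n = 7) of all transcripts in NUL, 2.13% ± 0.24 (n = 6) in LAC and 1.79% ± 0.124 (n = 6) in ID6 mice. The NUL and LAC shares pool both ranges of animal number, and ID6 mice were all numbered 200 and above. Under number 200 and from 200 upward, NUL means were 3166 and 2104 TPM for Gnmt, 2613 and 1937 TPM for Hpd, and 1953 and 1998 TPM for Ass1. The part of range in the lower ID6 share was not tested. Averaged over the 19 mice, 32 of the 45 lay above 100 TPM. The most abundant was Gnmt, followed by Hpd, Ass1, Bhmt, Arg1, Mat1a and Cps1. At the other end, Asns, Psat1 and Phgdh, which make asparagine and serine, were each under 1 TPM. The genes of amino acid breakdown and of urea synthesis were thus expressed in every stage, while the first enzymes of serine synthesis were near the bottom of the scale.

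**Figure D1:**
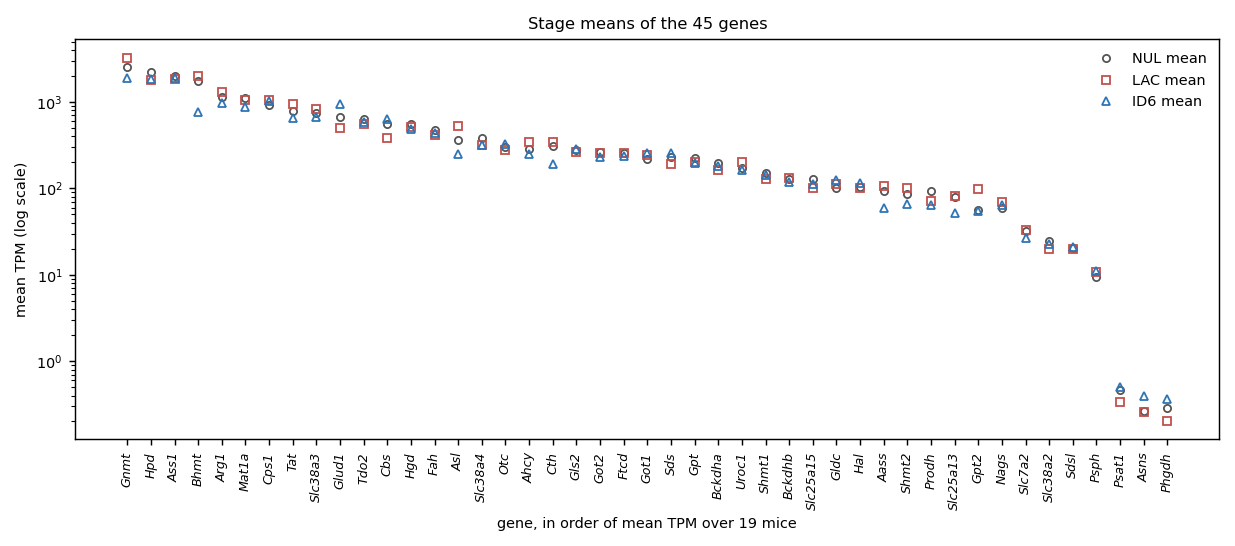
Mean TPM of the 45 genes in the 7 NUL, 6 LAC and 6 ID6 mice, on a log scale, with genes in order of their mean over the 19 mice. For most genes the 3 symbols lie close together, Bhmt, Asl, Cbs and Glud1 have visibly separate stage means, and Asns, Psat1 and Phgdh are the only genes under 1 TPM.

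In lactation against nulliparous mice, 5 of the 45 genes changed: Gpt2 and Asl rose, and Cbs, Slc25a15 and Bckdha fell. Over all tested entries 2.72% rose and 6.49% fell, against 4.44% and 6.67% of the 45. The median log2 change of the 45 genes was -0.03, as it was over all entries (-0.03). None of the 45 also met the study's threshold of a log2 change of at least 1 in size, which 0.431% of entries met upward and 0.314% downward (0 of the 45 met it with an unadjusted p under 0.05 in limma, and 12 of the 45 had such a p at any size). Counts at an unadjusted p, here and below, have no share over all entries beside them. They therefore cannot show an excess or a lack among these genes. With median-ratio scaling 3 genes rose and 3 fell, and with quantile normalization 4 rose and 2 fell. Over all entries 441 rose and 1053 fell, against 678 and 811 with median-ratio scaling and 680 and 815 with quantile normalization. Without NUL_220, NUL_227, LAC_36 or LAC_240 the count was 3 in place of 5, and over all entries 1191 to 1358 in place of 1494.

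In involution against lactation, 13 of the 45 genes changed: Glud1, Cbs and Bckdha rose, and Bhmt, Asl, Gpt2, Gnmt, Cth, Aass, Slc25a13, Shmt2, Arg1 and Got2 fell. Over all tested entries 18.1% rose and 4.73% fell, against 6.67% and 22.2% of the 45. Bhmt and Asl also fell by a log2 change of at least 1, as did 0.906% of all entries, and Glud1 lay just short of it upward, where 1.03% of entries passed. The median log2 change was -0.00058 for the 45 genes and 0.10 over all entries. Median-ratio scaling moved the latter to 0.0011. It changed the split of all entries from 2936 higher and 767 lower to 1365 and 1262, and that of the 45 genes from 3 higher and 10 lower to 2 and 15. Among mice numbered 200 and above, 8 of the 45 genes changed, beside 2260 of 16062 entries. There 3 of the 45 rose and 5 fell, beside 1685 and 575 of all entries. The median log2 change in that range was 0.081 for the 45 genes and 0.096 over all entries, so the medians lay closer together than over all mice. Of these 8 genes, 6 (Bhmt, Cbs, Asl, Gpt2, Gnmt and Arg1) were among the 13 and Otc and Sds were not.

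In involution against nulliparous mice, 3 of the 45 genes changed, and Bhmt, Slc25a13 and Got2 all fell. Over all entries 3.44% rose and 0.912% fell. Bhmt alone met the threshold of a log2 change of at least 1, as did 0.173% of entries downward and 0.0801% upward. No member rose in limma (3 had an unadjusted p under 0.05 in that direction). Without NUL_226, 6 of the 45 genes changed, and without any one of NUL_1, NUL_4, NUL_13, ID6_201, ID6_209, ID6_216, ID6_218 and ID6_232 Bhmt was the only one. Over all entries 878 changed without NUL_226 and 242 to 490 without one of those others, in place of 707. The median log2 change was -0.11 for the 45 genes and 0.07 over all entries. Among mice numbered 200 and above, 0 of the 45 genes passed limma's adjusted threshold in this comparison, beside 128 of 16062 entries. The median log2 change in that range was -0.038 for the 45 genes and 0.039 over all entries. An unadjusted p under 0.05 was found there for 9 of the 45.

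**Figure D2:**
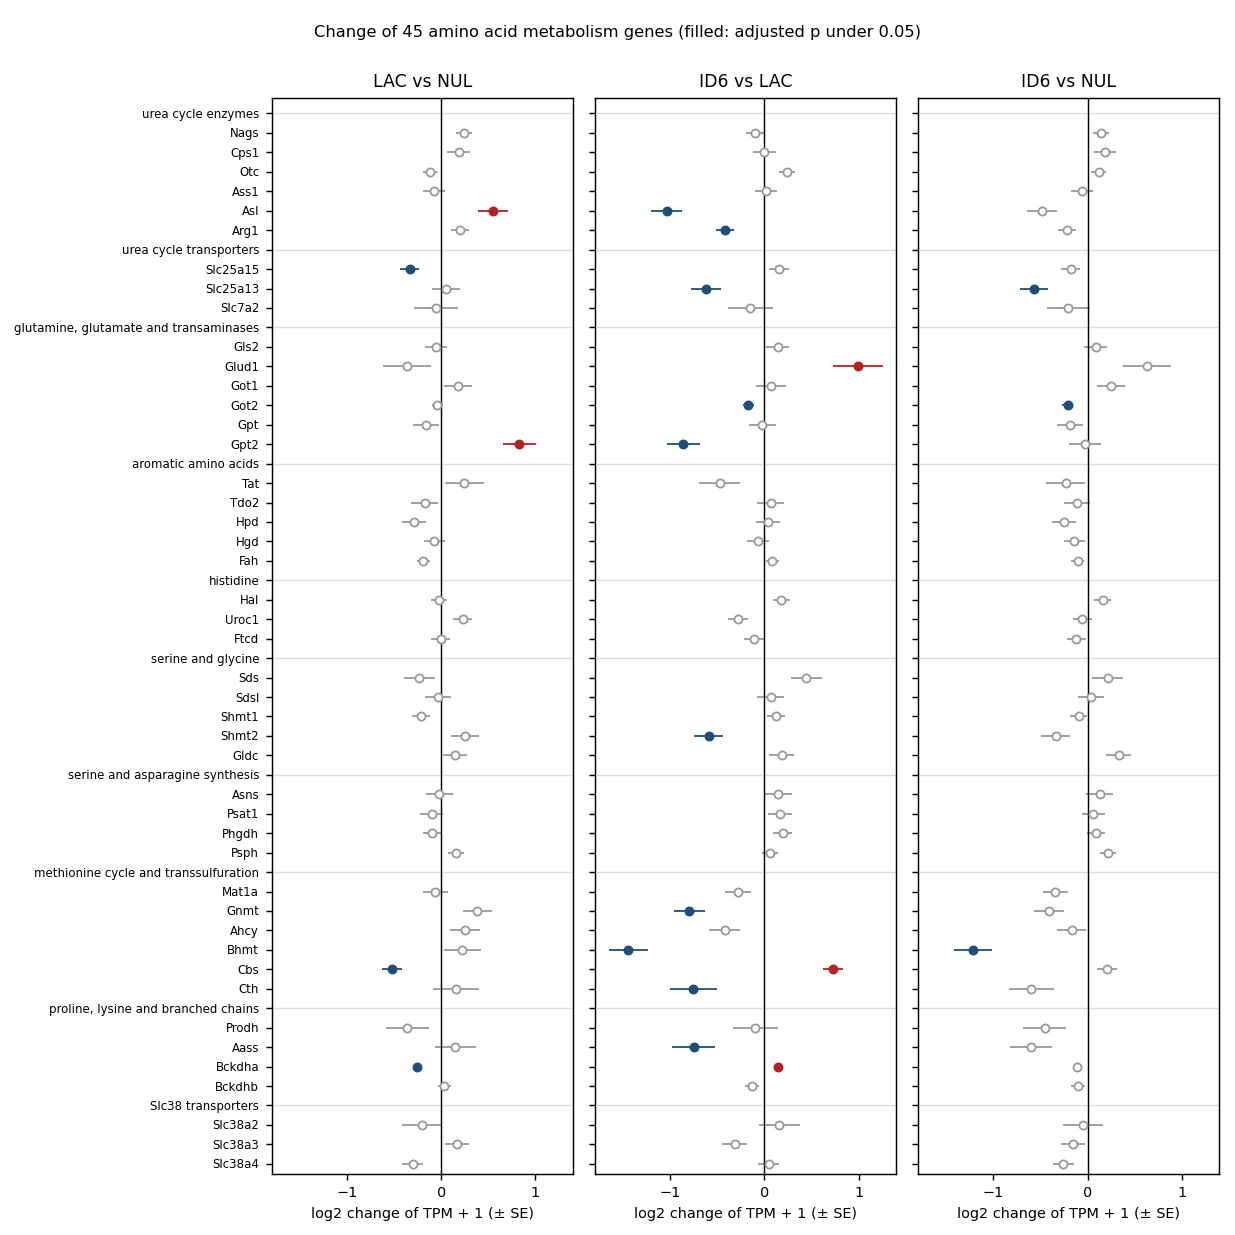
Log2 change of TPM + 1 (x axis, with bars of 1 SE) of each of the 45 genes (rows, by pathway) in the 3 comparisons. Filled symbols mark adjusted p under 0.05, red upward and blue downward, which are 5 genes in LAC vs NUL, 13 in ID6 vs LAC and 3 in ID6 vs NUL, with Bhmt farthest to the left in the last 2.

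The methionine cycle and transsulfuration showed the lowest adjusted p of the 45 genes. At involution against lactation 3 of its 6 genes fell and 1 rose, beside 4.73% and 18.1% of all entries. The 6 together went from 7419 ± 921 TPM in LAC to 4606 ± 619.6 TPM in ID6, with 6578 ± 1374 TPM in NUL. The NUL and LAC sums pool both ranges of animal number, and the ID6 sum holds only the higher. In LAC, Gnmt, Mat1a, Ahcy and Cth averaged higher under number 200 than from 200 upward (Gnmt 3694 and 2852 TPM). Bhmt averaged 2007 TPM in both ranges, and Cbs 341 and 433 TPM. Homocysteine stands at the branch point, and the genes on its branches moved in different directions, also within transsulfuration. Bhmt, which methylates homocysteine back to methionine with betaine, fell, and Cbs, which commits homocysteine to transsulfuration, rose. Cth, the step after Cbs, fell over all mice and was not called among mice numbered 200 and above.

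Bhmt (ENSMUSG00000074768, chr13:93616675-93637961, minus strand, GRCm38) was at 983 to 2064 TPM (median 1837) in NUL, 1646 to 2411 TPM (median 2017) in LAC and 428 to 1101 TPM (median 821) in ID6 mice. Every ID6 mouse lay below every LAC mouse, and below 6 of the 7 NUL mice, of which NUL_226 stood apart at 983 TPM. The fall at involution was to 0.384 of the LAC mean (log2 change -1.45, SE 0.21, adjusted p = 7.49e-05) and to 0.442 of the NUL mean (log2 change -1.22, SE 0.20, adjusted p = 0.00363). It was as large among mice numbered 200 and above against LAC (log2 change -1.45, SE 0.28, adjusted p = 0.00331), while against NUL the call was lost there (log2 change -1.10, SE 0.26, adjusted p = 0.0648). In lactation the change was not past the threshold (log2 change 0.23, SE 0.20, adjusted p = 0.545).

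Cbs (ENSMUSG00000024039, chr17:31608894-31637238, minus strand) was at 471 to 697 TPM (median 544) in NUL, 287 to 476 TPM (median 387) in LAC and 549 to 687 TPM (median 648) in ID6 mice. LAC mice were the low group, without overlap with ID6 and with slight overlap with NUL. Cbs fell in lactation (log2 change -0.53, SE 0.11, adjusted p = 0.0042) and rose at involution (log2 change 0.73, SE 0.11, adjusted p = 0.000128), and the difference between ID6 and NUL was not past the threshold (log2 change 0.20, SE 0.11, adjusted p = 0.244). The rise was also called among mice numbered 200 and above (adjusted p = 0.00442), whereas the fall in lactation was not (log2 change -0.38, SE 0.12, adjusted p = 0.0781) and was among the lower-numbered mice (log2 change -0.66, SE 0.14, adjusted p = 0.0474).

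The bases before the transcript starts of Bhmt and Cbs are shown because these are the genes with the lowest adjusted p, changing in opposite directions at involution. RefSeq sequences of build GRCm38.p6 were found for 34 of the 45 genes, and none for Asl, the next in order. Each stretch is read 5′ to 3′ on the minus strand and holds the bases from 250 before the RefSeq start up to the first base of any exon of the gene in GENCODE release M21, which leaves 47 bases for Bhmt (chr13:93637962-93638008) and 217 for Cbs (chr17:31637239-31637455). Capitals mark AGGTCA, the half-site that many nuclear receptors bind, in Bhmt, and ATTGG, the reverse complement of the CCAAT box, in Cbs.
Bhmt: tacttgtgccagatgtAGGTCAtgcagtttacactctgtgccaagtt
Cbs: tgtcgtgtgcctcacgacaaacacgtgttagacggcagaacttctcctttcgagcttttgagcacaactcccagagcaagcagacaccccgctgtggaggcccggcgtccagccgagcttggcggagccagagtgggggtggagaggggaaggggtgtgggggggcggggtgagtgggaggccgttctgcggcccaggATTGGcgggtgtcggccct
Searched on both strands over the 250 bases before the start, motifs picked after these sequences had been seen, AGGTCA stood in the Bhmt window 3 times (at 234, 72 and 47 bases before the start) and not in the Cbs window. Only the match at 234 is in the printed stretch, and those at 72 and 47 lie past the first GENCODE exon base. Of 32851 RefSeq windows of that length, 14.0% held AGGTCA at least once. CCAAT was in both windows and in 33.8% of all, once in Bhmt and at 52 and 15 bases before the start in Cbs. Of these matches only that at 52 in Cbs is in a printed stretch. TATAAA was in neither and in 12.4% of all. The Cbs stretch was 65.4% G and C, that of Bhmt 44.7%. A match describes the letters only.

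Gnmt (ENSMUSG00000002769, chr17:46725664-46729168, minus strand), the glycine N-methyltransferase that uses up surplus S-adenosylmethionine, was the most abundant of the 45 genes. It was at 1578 to 3456 TPM (median 2559.7) in NUL, 2799 to 3968 TPM (median 3129.9) in LAC and 1544 to 2313 TPM (median 1859.7) in ID6 mice. All ID6 mice lay below all LAC mice, and NUL mice spread over both. Gnmt fell at involution (log2 change -0.80, SE 0.17, adjusted p = 0.00182), also among mice numbered 200 and above (adjusted p = 0.0152), and its lactation value was not past the threshold (log2 change 0.38, SE 0.16, adjusted p = 0.146) except with quantile normalization (adjusted p = 0.0288) and with range of animal number as a covariate (adjusted p = 0.0395).

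Cth (ENSMUSG00000028179, chr3:157894248-157925077, minus strand) encodes cystathionine gamma-lyase, the step after Cbs. It was at 156 to 487 TPM (median 295) in NUL, 224 to 494 TPM (median 307) in LAC and 159 to 229 TPM (median 195) in ID6 mice. The LAC mice formed a high and a low set, 3 mice numbered under 200 at 369 to 494 TPM and 3 numbered 200 and above at 224 to 244 TPM, and only the high set lay clear of ID6. Cth fell at involution over all mice (log2 change -0.75, SE 0.25, adjusted p = 0.037) but not among mice numbered 200 and above (log2 change -0.29, SE 0.16, adjusted p = 0.26). The call was also lost without LAC_36, LAC_102, LAC_133, ID6_201, ID6_209, ID6_216 or ID6_232 (adjusted p from 0.0553 to 0.0944). Cbs, the step before it, was called in the opposite direction in the same range of animal number in which Cth was not called.

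Mat1a, which makes S-adenosylmethionine, averaged 1123 ± 263 TPM in NUL, 1067 ± 189 TPM in LAC and 869 ± 63.5 TPM in ID6 and did not pass the test in any comparison (smallest adjusted p 0.124). Ahcy, which splits S-adenosylhomocysteine to homocysteine, averaged 289 ± 72.9 TPM in NUL, 343 ± 81.9 TPM in LAC and 252 ± 32.7 TPM in ID6, with a log2 change of -0.42 at involution that missed the threshold (adjusted p = 0.0692) and passed it with median-ratio scaling and with quantile normalization. Among mice numbered 200 and above its value was -0.18 (adjusted p = 0.368), and with range of animal number as a covariate -0.16 (adjusted p = 0.4).

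**Figure D3:**
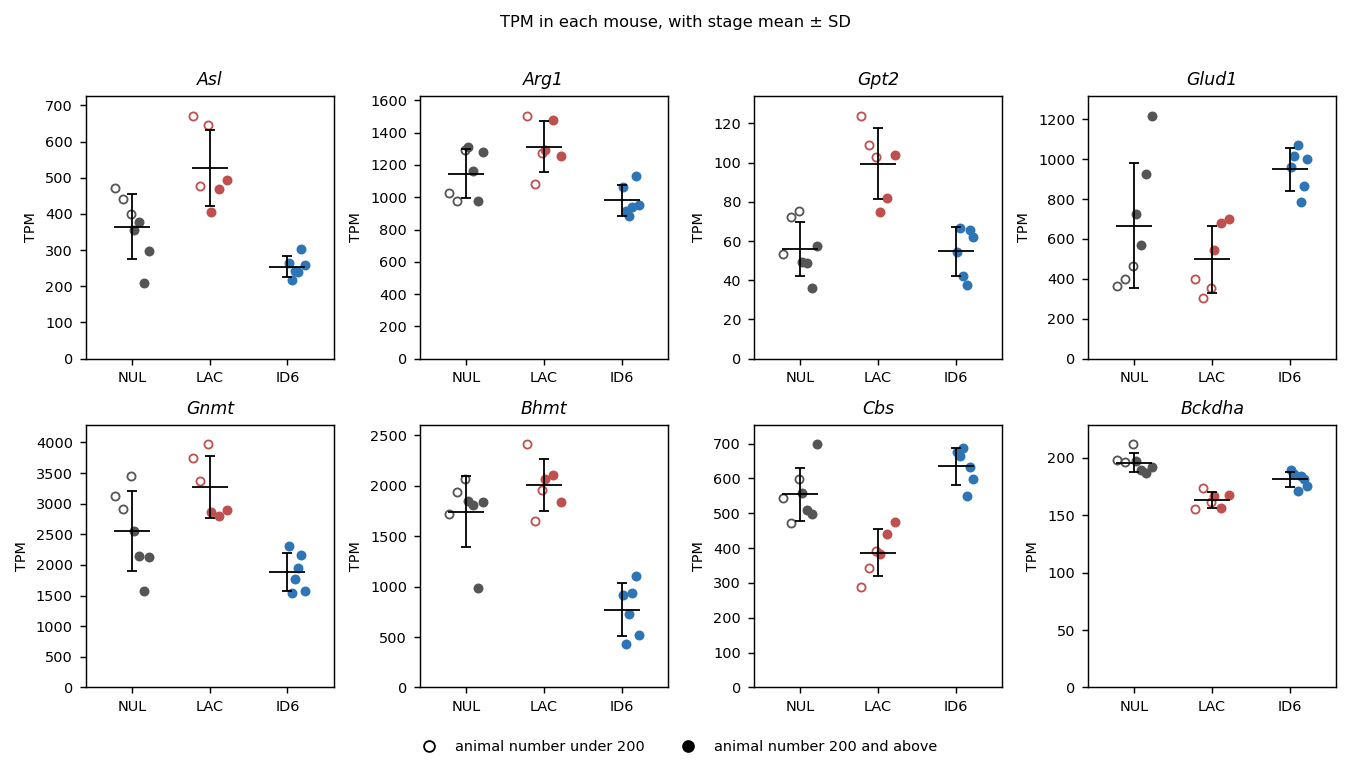
TPM of 8 of the genes in each mouse (y axis, from 0) by stage, with black bars for the stage mean ± SD. Open symbols are mice numbered under 200 and filled symbols mice numbered 200 and above. Bhmt, Asl, Gpt2 and Gnmt lie lower in all 6 ID6 than in all 6 LAC mice, Cbs and Glud1 lie higher, and in Glud1 the open symbols form the low end of NUL and LAC.

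Of the 6 urea cycle enzymes 2 changed in the fit of all mice, and 4 were not called in any comparison there. Their summed level was 4772 ± 636 TPM in NUL, 5099 ± 589 TPM in LAC and 4541 ± 361 TPM in ID6 mice. The 2 called were Asl and Arg1, the last steps, which release arginine and then urea. Asl rose in lactation, as did 2.72% of all entries. Asl and Arg1 fell at involution against LAC, as did 4.73% of all entries.

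Asl (ENSMUSG00000025533, chr5:130011258-130029247, minus strand), argininosuccinate lyase, was at 208.7 to 473 TPM (median 378) in NUL, 405 to 672 TPM (median 486) in LAC and 217 to 302 TPM (median 249.9) in ID6 mice. The lowest LAC mouse stood above the highest ID6 mouse, and LAC and NUL overlapped. The rise in lactation amounted to 44.5% of the NUL mean (log2 change 0.55, SE 0.16, adjusted p = 0.0356). At involution the mean fell to 0.481 of that in lactation (log2 change -1.04, SE 0.17, adjusted p = 0.000196), and the fall kept its call among mice numbered 200 and above (log2 change -0.85, SE 0.16, adjusted p = 0.00267). The rise did not keep it in either range of animal number (adjusted p = 0.0539 and 0.128) nor without NUL_220, NUL_227, LAC_36, LAC_102 or LAC_240 (adjusted p from 0.0512 to 0.0916). In NUL mice Asl averaged 438 ± 36.6 TPM under number 200 and 309.9 ± 75.8 TPM from 200 upward.

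Arg1, arginase (ENSMUSG00000019987, chr10:24915221-24927484, minus strand), was at 974 to 1310.3 TPM (median 1160.0) in NUL, 1084 to 1505 TPM (median 1283) in LAC and 882 to 1131 TPM (median 948) in ID6 mice. ID6 mice were the low group, overlapping with both others, and the fall against LAC was called (log2 change -0.42, SE 0.10, adjusted p = 0.0052), also among mice numbered 200 and above (adjusted p = 0.0118). The other 4 enzymes did not pass the test over all mice. Cps1, the entry of ammonia into the cycle in mitochondria, averaged 924 ± 178 TPM in NUL, 1045 ± 171 TPM in LAC and 1036 ± 83.2 TPM in ID6, with log2 changes of 0.19 in lactation and -0.00058 at involution. Nags, whose product activates the Cps1 enzyme, averaged 59.0 ± 7.51 TPM in NUL, 69.6 ± 6.07 TPM in LAC and 65.1 ± 7.76 TPM in ID6 (smallest adjusted p 0.102). Ass1, which forms argininosuccinate just before Asl, averaged 1979 ± 337 TPM in NUL, 1867 ± 266 TPM in LAC and 1880.1 ± 185 TPM in ID6, with log2 changes of -0.08 and 0.02. Otc, which forms citrulline, averaged 299.7 ± 34.2 TPM in NUL, 276 ± 31.7 TPM in LAC and 324 ± 23.5 TPM in ID6. Its involution value just missed the threshold (log2 change 0.23, SE 0.08, adjusted p = 0.0525) and passed it among mice numbered 200 and above (log2 change 0.37, SE 0.08, adjusted p = 0.00659). Otc also passed with range of animal number as a covariate (adjusted p = 0.0038) and with quantile normalization (adjusted p = 0.0399). With median-ratio scaling its log2 change was 0.08 (adjusted p = 0.662).

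Of the 3 transporters that serve the urea cycle, the mitochondrial ornithine carrier Slc25a15 (ENSMUSG00000031482, chr8:22375551-22398597, minus strand) fell in lactation, from 128 ± 22.8 TPM in NUL to 100.3 ± 5.18 TPM in LAC (log2 change -0.33, SE 0.10, adjusted p = 0.0436), with 113 ± 14.2 TPM in ID6. This call did not hold without NUL_220, NUL_221, NUL_227, ID6_209 or any one of LAC_36, LAC_102, LAC_133, LAC_200, LAC_213 and LAC_240 (adjusted p from 0.0523 to 0.088), nor among mice numbered under 200 (log2 change -0.11, SE 0.08, adjusted p = 0.47). It held among those numbered 200 and above (log2 change -0.51, SE 0.12, adjusted p = 0.0223).

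Slc25a13 (ENSMUSG00000015112, chr6:6041218-6217173, minus strand), citrin, exchanges aspartate for glutamate across the inner mitochondrial membrane and so brings aspartate to Ass1. It was at 60.5 to 100.4 TPM (median 81.8) in NUL, 56.9 to 105 TPM (median 80.8) in LAC and 48.2 to 57.4 TPM (median 51.4) in ID6 mice. ID6 mice were the lowest group and did not overlap with NUL, while the highest ID6 mouse reached just above the lowest LAC mouse. Over all mice it fell at involution against LAC (log2 change -0.62, SE 0.16, adjusted p = 0.00737) and against NUL (log2 change -0.57, SE 0.15, adjusted p = 0.0384). Within the higher range of animal number the values were smaller and missed the threshold, at a log2 change of -0.29 (adjusted p = 0.0646) and -0.36 (adjusted p = 0.0759). The call against NUL was also lost without NUL_1, NUL_4, NUL_13 or any one of the 6 ID6 mice (adjusted p from 0.0594 to 0.0889). Slc7a2, a transporter of cationic amino acids such as arginine, averaged 31.8 ± 7.72 TPM in NUL, 33.2 ± 17.4 TPM in LAC and 27.0 ± 3.06 TPM in ID6 and was not called, with LAC mice between 15.1 and 64.3 TPM.

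Among the 6 genes of glutamine, glutamate and transamination, Gpt2 changed in both directions over the stages, Glud1 rose and Got2 fell. Gpt2 (ENSMUSG00000031700, chr8:85492576-85527560, plus strand), the mitochondrial alanine aminotransferase, was at 36.1 to 75.5 TPM (median 53.5) in NUL, 74.6 to 124 TPM (median 103) in LAC and 37.7 to 66.9 TPM (median 58.2) in ID6 mice. LAC mice were high, without overlap with ID6 and with the lowest LAC mouse just under the highest NUL mouse. The LAC mean was 1.77-fold the NUL mean (log2 change 0.83, SE 0.17, adjusted p = 0.00435), and at involution it fell to 0.551 of the LAC mean (log2 change -0.86, SE 0.18, adjusted p = 0.00171), while the difference between ID6 and NUL was not past the threshold (log2 change -0.03, SE 0.17, adjusted p = 0.932). The rise was called in each range of animal number, at a log2 change of 0.74 (adjusted p = 0.0406) under 200 and 0.85 (adjusted p = 0.0247) from 200 upward, and so was the fall in the higher range (adjusted p = 0.0304). Its cytosolic counterpart Gpt was more abundant, at 227.4 ± 53.7 TPM in NUL, 199.8 ± 28.5 TPM in LAC and 196 ± 23.0 TPM in ID6, and was not called, with log2 changes of -0.16 and -0.02.

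Glud1 (ENSMUSG00000021794, chr14:34310727-34345265, plus strand), glutamate dehydrogenase, which releases ammonia from glutamate in mitochondria, was at 365 to 1218 TPM (median 570.1) in NUL, 303 to 701 TPM (median 471) in LAC and 783 to 1073 TPM (median 981) in ID6 mice. All ID6 mice lay above all LAC mice, and NUL mice reached from within the LAC range to above the highest ID6 value. Glud1 rose at involution over all mice to 1.91-fold the LAC mean (log2 change 0.996, SE 0.26, adjusted p = 0.0109). Within the higher range of animal number the value was 0.57 (SE 0.19) and missed the threshold (adjusted p = 0.0609). Lower-numbered mice averaged 409 ± 49.6 TPM in NUL and 353 ± 48.3 TPM in LAC, and higher-numbered mice 860.0 ± 279.8 and 642 ± 86.4 TPM.

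Got2 (ENSMUSG00000031672, chr8:95864134-95888547, minus strand), the mitochondrial aspartate aminotransferase, fell by a small amount, from 267 ± 11.0 TPM in NUL and 259.9 ± 18.7 TPM in LAC to 231 ± 15.7 TPM in ID6 mice. It was called against LAC (log2 change -0.17, SE 0.06, adjusted p = 0.039) and against NUL (log2 change -0.21, SE 0.06, adjusted p = 0.0387), and neither call held among mice numbered 200 and above (adjusted p = 0.277 and 0.241). The first was lost without LAC_36, LAC_102, LAC_133, LAC_240, ID6_201, ID6_209, ID6_216 or ID6_218 (adjusted p from 0.0514 to 0.0932), the second without NUL_1, NUL_4, NUL_13, NUL_220, ID6_201, ID6_209, ID6_216, ID6_218 or ID6_232 (adjusted p from 0.0516 to 0.0875). Its cytosolic counterpart Got1 averaged 221.3 ± 59.7 TPM in NUL, 244 ± 28.0 TPM in LAC and 258 ± 42.7 TPM in ID6. Gls2, the liver glutaminase, averaged 277 ± 55.6 TPM in NUL, 264 ± 33.5 TPM in LAC and 289.9 ± 26.2 TPM in ID6, and neither was called.

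Of the 5 genes of serine and glycine breakdown 1 changed over all mice, falling at involution against LAC, as did 4.73% of all entries. Shmt2 (ENSMUSG00000025403, chr10:127517123-127522444, minus strand), the mitochondrial hydroxymethyltransferase that passes one-carbon units from serine to folate, was at 60.3 to 107 TPM (median 85.4) in NUL, 77.3 to 129 TPM (median 99.4) in LAC and 57.2 to 76.4 TPM (median 65.3) in ID6 mice. ID6 mice lay below all LAC mice, and the fall was called over all mice (log2 change -0.59, SE 0.15, adjusted p = 0.00988). The 3 higher-numbered LAC mice, at 77.3 to 82.9 TPM, were only just above the highest ID6 mouse, and the value among mice numbered 200 and above missed the threshold (log2 change -0.28, SE 0.10, adjusted p = 0.0903). The cytosolic Shmt1 averaged 151 ± 17.2 TPM in NUL, 129.9 ± 14.9 TPM in LAC and 141 ± 15.3 TPM in ID6. Gldc, of the glycine cleavage system, averaged 102.2 ± 24.1 TPM in NUL, 112 ± 18.2 TPM in LAC and 126 ± 8.2 TPM in ID6. Sdsl, a relative of serine dehydratase, averaged 20.7 ± 4.75 TPM in NUL, 19.9 ± 3.27 TPM in LAC and 20.9 ± 3.15 TPM in ID6. None of these was called.

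Sds, serine dehydratase (ENSMUSG00000029597, chr5:120476526-120483932, plus strand), which turns serine into pyruvate, averaged 231 ± 66.7 TPM in NUL, 191 ± 30.3 TPM in LAC and 259.7 ± 37.1 TPM in ID6 and was not called over all mice (log2 change -0.23, SE 0.16, adjusted p = 0.425 in lactation). It was the only one of the 45 genes whose lactation change differed between the ranges of animal number by limma's test of the interaction, which 0.111% of all entries passed. Among mice numbered under 200, 3 NUL mice had 150.0 to 178 TPM and 3 LAC mice 179 to 231 TPM, a log2 change of 0.35 that was not called (adjusted p = 0.132). Among mice numbered 200 and above, 4 NUL mice had 245 to 322 TPM and 3 LAC mice 154 to 185 TPM, a log2 change of -0.71 (adjusted p = 0.00468). The LAC mean was thus below the NUL mean in the second range and above it in the first, where the change was not called. In that first range the highest NUL mouse, at 177.85 TPM, lay just under the lowest LAC mouse, at 179.22 TPM. The interaction was -1.06 (SE 0.17, adjusted p = 0.0390), and its adjusted p was 0.0224 to 0.0761 over the other settings, 3 of which (a pseudocount of 0.1, no filter, median-ratio scaling) put it past 0.05. Among mice numbered 200 and above Sds also rose at involution, with ID6 mice at 218.3 to 323 TPM (log2 change 0.60, SE 0.12, adjusted p = 0.00384). Over all mice its log2 change against LAC was 0.45 and missed the threshold (adjusted p = 0.0635), but passed with only the groups compared (adjusted p = 0.0131).

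**Figure D4:**
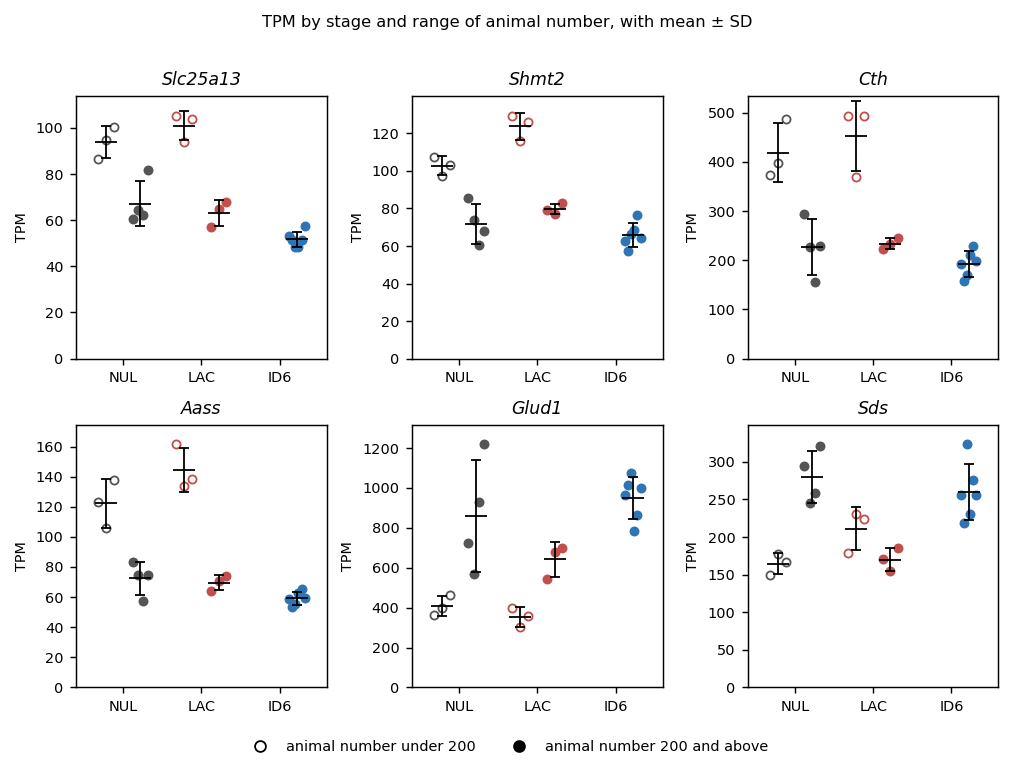
TPM (y axis, from 0) of 6 genes by stage, split into mice numbered under 200 (open symbols, left in NUL and LAC) and 200 and above (filled symbols), with black bars for mean ± SD. For Slc25a13, Shmt2, Cth and Aass the open symbols lie above the filled ones in both NUL and LAC, for Glud1 below them, and for Sds below them in NUL and mostly above them in LAC.

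Of the 4 genes of proline, lysine and branched-chain breakdown, Aass and Bckdha changed. Aass (ENSMUSG00000029695, chr6:23072173-23132986, minus strand), which begins lysine breakdown, was at 57.3 to 138 TPM (median 83.2) in NUL, 63.9 to 161 TPM (median 104) in LAC and 53.6 to 65.4 TPM (median 59.0) in ID6 mice. Its LAC values fell into 134 to 161 TPM in lower-numbered and 63.9 to 73.9 TPM in higher-numbered mice, and the second set overlapped with ID6. Aass fell at involution over all mice (log2 change -0.75, SE 0.23, adjusted p = 0.024), but not among mice numbered 200 and above (log2 change -0.23, SE 0.10, adjusted p = 0.161) nor without LAC_36, LAC_102 or LAC_133 (adjusted p from 0.0598 to 0.0648).

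Bckdha (ENSMUSG00000060376, chr7:25629946-25658981, minus strand) encodes a subunit of the dehydrogenase that commits leucine, isoleucine and valine to breakdown. It was at 187 to 212 TPM (median 197) in NUL, 156 to 174 TPM (median 164) in LAC and 171 to 189 TPM (median 183) in ID6 mice. LAC mice lay below all NUL mice, and the fall in lactation was called (log2 change -0.26, SE 0.04, adjusted p = 0.00105), also among mice numbered 200 and above (adjusted p = 0.0313) but not among the 6 numbered under 200 (log2 change -0.30, SE 0.07, adjusted p = 0.0615). Its small rise at involution (log2 change 0.15, SE 0.05, adjusted p = 0.0264) became -0.0048 with median-ratio scaling (adjusted p = 0.975). That rise was also lost without LAC_102, LAC_213, ID6_201 or ID6_209 (adjusted p from 0.0506 to 0.0622) and among mice numbered 200 and above (adjusted p = 0.0854). Bckdhb, the partner subunit, averaged 128 ± 12.7 TPM in NUL, 131 ± 13.02 TPM in LAC and 118 ± 5.14 TPM in ID6. Prodh, which begins proline breakdown, averaged 94.5 ± 34.2 TPM in NUL, 71.0 ± 20.9 TPM in LAC and 64.7 ± 8.22 TPM in ID6. Neither was called, and Prodh at involution against NUL had a log2 change of -0.46 (adjusted p = 0.219) that passed without NUL_226.

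In the remaining groups limma, fitted over all mice, called 0 genes in each of the 3 comparisons. Of the 5 enzymes of aromatic amino acid breakdown, 2 had an unadjusted p under 0.05 in lactation, 1 at involution against LAC and 0 against NUL. Such counts, in this and the next groups, are given without a share over all entries. Tat, the tyrosine aminotransferase, averaged 782 ± 236 TPM in NUL, 939 ± 322 TPM in LAC and 650.4 ± 110.5 TPM in ID6. Hpd, which follows it in tyrosine breakdown, averaged 2227 ± 397 TPM in NUL, 1821 ± 328 TPM in LAC and 1855 ± 215 TPM in ID6. Hgd, the step after Hpd, averaged 553 ± 113 TPM in NUL, 519 ± 49.5 TPM in LAC and 494 ± 33.3 TPM in ID6. Fah, the last step, averaged 473 ± 43.0 TPM in NUL, 414 ± 14.2 TPM in LAC and 439 ± 39.1 TPM in ID6. Tdo2, which opens the tryptophan ring, averaged 632 ± 110.3 TPM in NUL, 561 ± 115 TPM in LAC and 582 ± 85.3 TPM in ID6. None of the 5 had stage means far enough apart to pass the test. The lactation values of Hpd and Fah, log2 changes of -0.29 (adjusted p = 0.173) and -0.19 (adjusted p = 0.084), passed the threshold with range of animal number as a covariate (adjusted p = 0.00768 and 0.0306).

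The 3 genes of histidine breakdown, in the order of their steps, were Hal, Uroc1 and Ftcd. Hal averaged 103 ± 13.9 TPM in NUL, 100.5 ± 6.22 TPM in LAC and 114 ± 12.5 TPM in ID6. Uroc1 averaged 171 ± 22.7 TPM in NUL, 200.8 ± 34.3 TPM in LAC and 163 ± 8.75 TPM in ID6. Ftcd averaged 259 ± 39.2 TPM in NUL, 258 ± 42.6 TPM in LAC and 236 ± 8.38 TPM in ID6. The lowest adjusted p among them was 0.059, for Uroc1 at involution against LAC (log2 change -0.28), and 1, 1 and 0 of the 3 had an unadjusted p under 0.05 in lactation, at involution against LAC and against NUL. Of the 4 genes that make serine and asparagine, only Psph, the last step of serine synthesis, exceeded 1 TPM, at 9.48 ± 0.776 TPM in NUL, 10.8 ± 1.67 TPM in LAC and 11.2 ± 0.701 TPM in ID6. Psph rose in lactation among mice numbered 200 and above (log2 change 0.31, adjusted p = 0.0313), from 9.61 ± 0.511 to 12.1 ± 0.488 TPM. Among those numbered under 200 its log2 change was 0.02 (adjusted p = 0.953). Phgdh, the entry into serine synthesis, averaged 0.286 ± 0.173 TPM in NUL, 0.202 ± 0.203 TPM in LAC and 0.362 ± 0.0917 TPM in ID6. Psat1, between Phgdh and Psph, averaged 0.459 ± 0.331 TPM in NUL, 0.34 ± 0.175 TPM in LAC and 0.498 ± 0.15 TPM in ID6. Asns, asparagine synthetase, averaged 0.261 ± 0.187 TPM in NUL, 0.258 ± 0.292 TPM in LAC and 0.392 ± 0.296 TPM in ID6. In this group 0, 0 and 1 genes had an unadjusted p under 0.05. At such levels log2 changes of TPM + 1 understate a change, and single mice ranged from 0.01 to 0.76 TPM for Asns within LAC.

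The Slc38 transporters, which carry neutral amino acids with sodium, were led by Slc38a3, known for glutamine transport in liver, at 741 ± 106 TPM in NUL, 830.0 ± 130.4 TPM in LAC and 672 ± 141 TPM in ID6. Slc38a4 averaged 386 ± 45.3 TPM in NUL, 316 ± 62.8 TPM in LAC and 322 ± 32.6 TPM in ID6. Slc38a2, a transporter known to respond to amino acid shortage, averaged 24.8 ± 11.2 TPM in NUL, 19.98 ± 3.37 TPM in LAC and 22.5 ± 4.1 TPM in ID6. In each comparison 1 of the 3 had an unadjusted p under 0.05. The lactation value of Slc38a4 (log2 change -0.30, SE 0.11, adjusted p = 0.0968) passed the threshold among mice numbered 200 and above (log2 change -0.42, SE 0.11, adjusted p = 0.0282).

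A list of 95 further genes of the same pathways, of which 90 were tested, moved in both directions. In lactation 3 rose and 10 fell (median log2 change -0.02), at involution against LAC 14 rose and 18 fell (median 0.0014), and at involution against NUL, 4 rose and 2 fell (median -0.05). In lactation that was 3.33% higher and 11.1% lower, beside 2.72% and 6.49% of all entries. At involution against LAC it was 15.6% higher and 20% lower, beside 18.1% and 4.73%, and against NUL 4.44% and 2.22%, beside 3.44% and 0.912%. Acmsd, which steers tryptophan breakdown away from NAD synthesis, was the only one with a log2 change of at least 1 in size. It averaged 8.94 TPM in NUL, 18.5 in LAC and 6.81 in ID6 mice (log2 change 0.99, adjusted p = 0.00302 in lactation and log2 change -1.30, adjusted p = 0.000138 at involution). Among the 12 further genes of methionine and cysteine metabolism, 2 rose at involution against LAC (Cdo1 and Pemt) and 3 fell (Bhmt2, Mpst and Ahcyl1). Cdo1, the dioxygenase that breaks down cysteine and so follows Cbs and Cth, went from 758 TPM in LAC to 1299.9 TPM in ID6 mice (log2 change 0.78, adjusted p = 1.35e-05). Bhmt2, a close relative of Bhmt, went from 141 to 116 TPM (log2 change -0.28, adjusted p = 0.00309). Arg2, the second arginase, was far below Arg1, at 0.353 TPM in LAC and 1.03 TPM in ID6 mice, and rose while Arg1 fell (log2 change 0.58, adjusted p = 0.00134). Amdhd1, the step of histidine breakdown after Uroc1, fell in lactation (log2 change -0.56, adjusted p = 9.94e-05) and rose at involution (log2 change 0.70, adjusted p = 4.11e-06). The 7 genes named here beside Acmsd were named after their values were seen.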

How the data were processed

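Poly(A) RNA of 19 mouse livers was sequenced with paired-end reads (NovaSeq6000). The authors aligned the reads to GRCm38, quantified genes with RSEM (version 1.3.1) and deposited TPM per gene and mouse. RSEM shares reads between near-identical genes, so values of close paralogs are uncertain. The authors' DESeq2 test needs counts and was not repeated. No pair of mice had more than 0.879% equal values among entries averaging 1 TPM or more.

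From the TPM, log2(TPM + 1) was tested with limma (version 3.58.1, R version 4.3.3, limma-trend, 1 mean per stage, Benjamini-Hochberg adjustment over 16230 entries averaging 0.1 TPM or more). The method was tested on simulated data. P-values weigh differences between stage means against the spread between mice. This spread is pooled over the stages and moderated across entries. Where no term for the range of animal number is fitted, it also includes differences between the ranges. Summaries used Python 3.11.15, numpy 2.4.6, pandas 2.3.3 and matplotlib 3.10.9. Gene positions came from GENCODE release M21 by symbol, and 45 of 45 matched.

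Every one of the 45 genes was named. Those with an adjusted p under 0.05 got their statistics, and those with a log2 change of at least 0.5 in size also their range in each stage. Further genes of the pathways were named at a log2 change of at least 1, apart from 7 named after their values were seen. The genes, lists and alternatives were chosen with earlier results of these data known. The alternatives were a pseudocount of 0.1, a filter at 1 TPM or none, median-ratio scaling, quantile normalization, only the groups compared, a term for the range of animal number, the mice numbered 200 and above alone, and leaving out 1 mouse at a time. The fit of mice numbered under 200 was added after the data were seen.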

Additional observations from a re-analysis of the deposited data

Results flagged for a closer look

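The change of Sds in lactation differed between the ranges of animal number by a test of that difference, with an interaction of -1.06 on the log2 scale (SE 0.17, limma adjusted p = 0.0390 over all entries). The ranges are not a batch named in the labels.

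In 7 of 135 groups (45 genes in 3 stages) 1 mouse stood far from the others by Dixon's criterion, and chance gives about 1 in 20. In ID6 mice, Ass1 reached 2234 TPM in ID6_230 with the next mouse at 1869, Got1 reached 342 TPM in the same mouse with the next at 259, Shmt1 was lowest in ID6_216 at 112 TPM with the next at 139, and Psph was highest in ID6_216 at 12.5 TPM with the next at 11.2. In NUL mice, Slc7a2 reached 47.9 TPM in NUL_4 with the next at 34.2, and Bhmt was lowest in NUL_226 at 983 TPM with the next at 1723. Without NUL_226, 6 genes in place of 3 changed at involution against NUL, with Asl, Gnmt and Prodh added. Over all entries 878 in place of 707 changed. In LAC mice, Phgdh reached 0.61 TPM in LAC_240 with the next at 0.16. Without LAC_240, 14 genes in place of 13 changed at involution against LAC, with Phgdh and Ahcy added and Got2 lost. Over all entries 3758 in place of 3703 changed.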

How the results depend on the processing

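The 45 genes gave 21 changes over the 3 comparisons. Of these, 13 kept their call whichever mouse was left out, and 7 kept it under every alternative run: Gpt2 in lactation, and Asl, Arg1, Gpt2, Gnmt, Bhmt and Cbs at involution against LAC. The only reversal was Bckdha at involution against LAC with median-ratio scaling (log2 change -0.0048), where the scaling moves the median of all entries to near 0. Other calls lost with a change of processing were Asl and Slc25a15 in lactation without a filter or with only the groups compared, Slc25a15 also with quantile normalization, Cth against LAC and Slc25a13 against NUL without a filter, Got2 in both comparisons with only the groups compared or with range as a covariate, Cth with that covariate, and the rise of Bckdha with quantile normalization. Calls gained with another scaling were those of Nags and Gnmt in lactation and of Nags, Otc, Uroc1, Ahcy, Bckdhb and Slc38a3 against LAC, and with range as a covariate those of Hpd, Fah, Shmt1, Gnmt and Slc38a4 in lactation and of Otc and Hpd against LAC. With only the groups compared, Otc, Sds and Ahcy were gained against LAC, and with a filter at 1 TPM, Otc.

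In lactation 5 genes changed, against 3 without a filter, 3 with only the groups compared, 10 with range as a covariate, 2 among mice numbered under 200 and 3 to 6 with 1 mouse left out. Over all entries 1494 changed, against 1219, 999, 2548, 698 and 1058 to 1578 in the same order. Among mice numbered 200 and above 6 genes changed in lactation, beside 1145 of 16062 entries. There Sds, Psph and Slc38a4 were gained, and Asl and Cbs were lost. At involution against LAC, 13 changed, against 8 among mice numbered 200 and above and 10 to 15 with 1 mouse left out. The counts over all entries were 3703, against 2260 and 2841 to 3870. Against NUL 3 changed, against 0 among mice numbered 200 and above and 1 to 6 with 1 mouse left out. The counts over all entries were 707, against 128 and 242 to 1480. The count of genes whose lactation change differed between ranges was 1, and 0 with a pseudocount of 0.1, without a filter and with median-ratio scaling, where the adjusted p of Sds was 0.0546, 0.0761 and 0.0516. Leaving out the mice numbered under 200 takes away mice and a range of animal number together, and the log2 changes of Cth, Aass, Slc25a13 and Shmt2 against LAC also became smaller there, to -0.29, -0.23, -0.29 and -0.28. The causes were not tested. No paired analysis was possible because the groups share no replicate numbers. TPM hold no depth, so for genes such as Asns, Psat1 and Phgdh the counting error is unknown.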

Other observations

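Receptors and transcription factors that act on amino acid breakdown were looked at as a list of 14 genes. In lactation 2 fell: Gcgr, the glucagon receptor, from 152 to 112 TPM (log2 change -0.44, adjusted p = 0.000711, limma), and Ghr, the growth hormone receptor, from 247 to 187 TPM (log2 change -0.40, adjusted p = 0.00307). At involution against LAC, 4 rose: Gcgr to 152 TPM (log2 change 0.44, adjusted p = 0.000287), Ghr to 290.0 TPM (log2 change 0.63, adjusted p = 2.71e-05), Prlr, the prolactin receptor, to 181 TPM (log2 change 0.36, adjusted p = 0.00857), and Nr3c1, the glucocorticoid receptor, to 17.4 TPM (log2 change 0.30, adjusted p = 0.0256). These genes were named after their values were seen. They were 14.3% of the 14 in lactation, beside 6.49% of all entries lower, and 28.6% at involution, beside 18.1% of all entries higher.

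A list of 12 genes holding Atf4 and genes it is known to activate when amino acids are short, of which 11 were tested, had 0 genes changed in lactation by limma (1 with an unadjusted p under 0.05) and 2 that rose at involution against LAC, Nupr1 from 0.637 to 1.2 TPM (log2 change 0.45, adjusted p = 0.0423) and Cebpg from 12.6 to 18.0 TPM (log2 change 0.48, adjusted p = 0.0338). These 2 genes are 18.2% of the 11, close to the 18.1% of all entries that rose in that comparison. Asns, Psat1 and Phgdh, often counted among the targets of Atf4, were under 1 TPM on average in every stage.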
